A study of Mus musculus with 131 samples.

Results

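The 10 genes described here are the enzymes that write DNA methylation, the enzymes that oxidise it, and the proteins that guard or limit it. They are Dnmt1, Uhrf1, Dnmt3a, Dnmt3b, Dnmt3l, Tet1, Tet2, Tet3, Dppa3 and Zfp57. They were picked by gene symbol from an expression table of 13927 genes, and all 10 had a row. Their read counts were followed in 55 single RFP cells and 40 single GFP cells, and the CpG methylation around their transcription starts was followed in 3 bisulfite libraries of cultured cells.

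The study injected embryonic stem cells (ESCs) into diploid host embryos. RFP cells carry an Actin-RFP transgene, the reporter of the injected ESCs, and GFP cells carry the Actin-GFP transgene of the host. Both were picked one by one from blastocysts at E4.0, on the C57BL/6J strain. The bisulfite libraries came from Actin-RFP ESCs (line Actin-RFP2, p10), from ESCs with the Gjb2 35delG mutation (p7), and from wild-type mouse embryonic fibroblasts (MEF, p2), all labelled C57BL/6J. The Actin promoter drives both reporters, so a reporter marks where a cell came from and not what it has become. No label names the embryo of a cell, so each group of cells counts as 1 sample, and each bisulfite library is 1 sample. For this reason no test was run between groups, and the intervals given below cover counting error only. Methylation was measured in cultured lines and not in the blastocyst cells themselves.

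DNA methylation in mammals sits mainly on the cytosine of CpG. UHRF1 binds CpGs that carry methylation on one strand after replication and brings DNMT1 to copy it to the other strand. DNMT3A and DNMT3B place methylation on unmarked DNA, and DNMT3L, which has no catalytic activity, stimulates them. TET enzymes oxidise methylated cytosine, a step toward its removal. DPPA3 (STELLA) holds UHRF1 away from chromatin in mouse oocytes and naive ESCs, and ZFP57 binds methylated imprinted regions and keeps them methylated. The blastocyst is the stage of low genome-wide methylation, before the epiblast gains it again.

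The promoters of Dnmt3l, Zfp57 and Tet1 are shown because their methylation separates 3 patterns among the cultured cells. The first Dnmt3l start was partly methylated in all libraries. The second Dnmt3l start and the first Zfp57 start were much less methylated in both ESC libraries than in MEF, while the second Zfp57 start and the Tet1 start were low in all 3. Each sequence runs from 250 bases before to 50 bases after a start, is taken from RefSeq on GRCm38.p6 and has its CpGs in capitals.
Dnmt3l first start, chr10:78042037-78042336, plus strand: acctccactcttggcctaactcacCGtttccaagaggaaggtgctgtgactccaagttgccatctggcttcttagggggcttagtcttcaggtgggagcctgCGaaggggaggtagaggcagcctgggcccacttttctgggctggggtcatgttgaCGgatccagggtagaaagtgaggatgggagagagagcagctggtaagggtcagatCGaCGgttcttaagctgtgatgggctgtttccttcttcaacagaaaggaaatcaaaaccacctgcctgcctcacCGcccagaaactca
Dnmt3l second start, chr10:78049592-78049891, plus strand: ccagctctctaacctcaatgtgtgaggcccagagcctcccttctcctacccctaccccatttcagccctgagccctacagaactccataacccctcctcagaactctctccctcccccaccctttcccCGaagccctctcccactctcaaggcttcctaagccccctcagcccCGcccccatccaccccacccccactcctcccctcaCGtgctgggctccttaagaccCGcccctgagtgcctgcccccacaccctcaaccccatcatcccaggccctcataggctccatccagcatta
Zfp57 first start, chr17:37000913-37001212, plus strand: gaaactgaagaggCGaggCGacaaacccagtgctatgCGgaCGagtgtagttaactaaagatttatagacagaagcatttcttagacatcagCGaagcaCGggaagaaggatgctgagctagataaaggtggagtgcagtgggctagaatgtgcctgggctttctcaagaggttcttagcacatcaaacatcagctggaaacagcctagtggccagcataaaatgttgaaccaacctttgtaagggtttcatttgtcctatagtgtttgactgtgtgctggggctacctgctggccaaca
Zfp57 second start, chr17:37002275-37002574, plus strand: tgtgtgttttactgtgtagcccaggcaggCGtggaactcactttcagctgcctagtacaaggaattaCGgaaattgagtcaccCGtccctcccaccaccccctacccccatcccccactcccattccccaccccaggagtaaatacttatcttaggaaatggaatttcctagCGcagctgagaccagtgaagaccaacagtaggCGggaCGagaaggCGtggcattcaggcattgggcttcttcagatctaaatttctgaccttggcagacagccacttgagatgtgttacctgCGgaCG
Tet1 start, chr10:62887275-62887574, minus strand: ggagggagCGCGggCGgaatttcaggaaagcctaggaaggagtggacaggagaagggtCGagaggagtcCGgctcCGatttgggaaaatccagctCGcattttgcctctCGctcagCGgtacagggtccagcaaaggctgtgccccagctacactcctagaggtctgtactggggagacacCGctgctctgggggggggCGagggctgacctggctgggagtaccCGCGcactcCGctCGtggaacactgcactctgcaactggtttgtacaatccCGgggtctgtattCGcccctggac
The first and second Dnmt3l promoters hold 6 and 4 CpGs, the first and second Zfp57 promoters 6 and 9, and the Tet1 promoter 17, against a median of 7 over 32850 mouse promoters of this length.

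The RFP cells held 311.25 M reads (M, 1000000 reads), with 0.518 to 9.56 M and a median of 5.58 M per cell. The GFP cells held 223.58 M reads, with 2.0 to 8.32 M and a median of 5.61 M per cell. A median of 4527 genes was detected per RFP cell and 5209 per GFP cell. Mitochondrially encoded reads made up over 10% of the reads in 4 RFP cells and 1 GFP cell. The groups differed in lineage markers. Summed trophectoderm markers had a median of 92.5 CPM (counts per 1000000 reads of a cell) in RFP cells and 11717 CPM in GFP cells. Summed epiblast markers had a median of 6653 CPM in RFP cells and 51.9 CPM in GFP cells. Of 11 measured primitive endoderm markers, 1 reached 10 CPM in RFP cells and 4 in GFP cells. Their sum had a median of 0.38 CPM in RFP cells and 478 CPM in GFP cells. Of the feeder fibroblast markers 3 of 10 were measured, and of the oocyte and polar body markers 4 of 8, and none reached 10 CPM in either group. The RFP cells thus carried mainly epiblast markers and the GFP cells mainly trophectoderm markers. The origin of a cell and its lineage therefore cannot be told apart in any comparison of RFP with GFP cells below.

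Between RFP and GFP cells, 6 of the 10 genes had a log2 ratio of at least 1 and 2 had a ratio of at most -1. The ratio was taken on pooled CPM + 1, the reads of all cells of a group over its total reads. Across all 13927 genes, 25% passed the same limit upward and 21.9% downward, and 26.3% upward and 23.3% downward did so among the 8184 genes that reached 10 CPM in either group. The higher genes were Uhrf1, Dnmt1, Dnmt3a, Dnmt3b, Tet1 and Zfp57. The lower ones were Dppa3 and Tet2. Dnmt3l and Tet3 stayed within the limit. The median log2 ratio of the 10 genes was 2.04, against 0.08 over all genes.

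**Figure D1:**
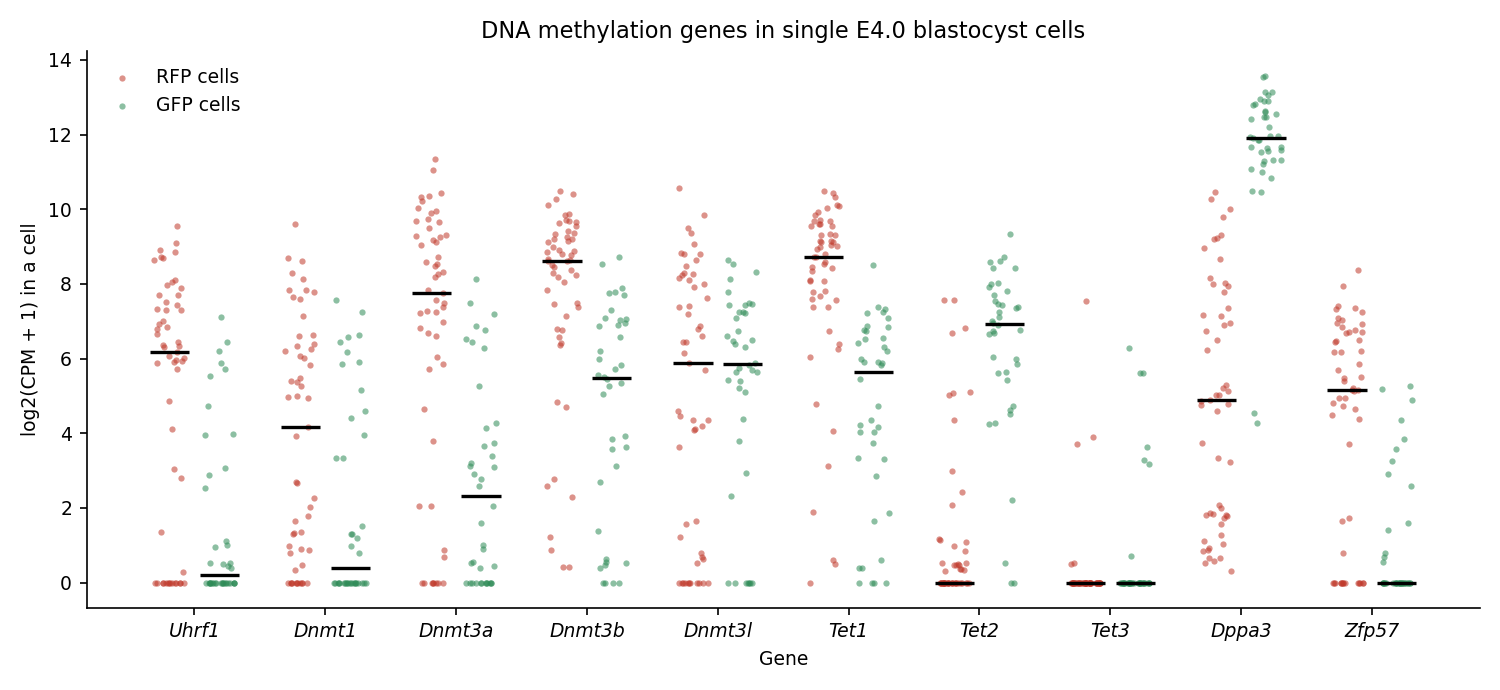
Level of each of the 10 genes in every RFP and GFP cell as log2(CPM + 1), 1 point per cell, with the median of each group as a bar. Dppa3 lies above every RFP cell in 37 of 40 GFP cells, Tet1 lies above every GFP cell in 31 of 55 RFP cells, and the Dnmt3l medians are level at 58.0 CPM in RFP cells and 56.9 CPM in GFP cells.

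The maintenance genes were higher in RFP cells. Uhrf1, which recognises newly replicated DNA, ranged from 0 to 749 CPM in RFP cells with a median of 70.8 CPM, and from 0 to 136 CPM in GFP cells with a median of 0.16 CPM. The highest RFP cell was RFP39, and 18 RFP cells lay above the highest GFP cell, so the groups overlapped. A read of Uhrf1 was present in 74.5% of RFP cells (exact binomial 95% interval 61.0 to 85.3%) and in 50% of GFP cells (33.8 to 66.2%). The share with at least 10 CPM was 67.3% of RFP cells and 22.5% of GFP cells. Pooled, Uhrf1 was at 130.6 CPM in RFP cells and 16.3 CPM in GFP cells, a log2 ratio of 2.93.

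Dnmt1, the copying methyltransferase, ranged from 0 to 780.6 CPM in RFP cells with a median of 17 CPM, and from 0 to 189.9 CPM in GFP cells with a median of 0.36 CPM. Both groups had cells without a read, and 10 RFP cells lay above the highest GFP cell. A read was found in 44 of 55 RFP cells and 20 of 40 GFP cells, and at least 10 CPM in 29 RFP cells and 12 GFP cells. The pooled level was 83.1 CPM in RFP cells, with an exact Poisson 95% interval of 82.1 to 84.2, and 23.1 CPM in GFP cells, with an interval of 22.5 to 23.8. The log2 ratio was 1.80. The single cell RFP54 held 17.4% of all Dnmt1 reads of the RFP cells, and GFP18 held 20.2% of those of the GFP cells. The 2 genes met in the same cell in 26 of 55 RFP cells at 10 CPM or more, and in 2 of 40 GFP cells. In GFP cells Dnmt1 alone reached 10 CPM in 10 cells and Uhrf1 alone in 7.

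The de novo methyltransferases Dnmt3a and Dnmt3b were higher in RFP cells, and their cofactor Dnmt3l was not past the limit. Dnmt3a ranged from 0 to 2607 CPM in RFP cells with a median of 215.0 CPM, and from 0 to 278 CPM in GFP cells with a median of 4.09 CPM. The RFP cells with most Dnmt3a were RFP50 and RFP6, and 26 of 55 RFP cells lay above every GFP cell. Its pooled level was 398.9 CPM in RFP cells and 34 CPM in GFP cells, a log2 ratio of 3.51. RFP6 is the cell with the fewest reads, 518064, and 62.0% of them were mitochondrially encoded. The log2 ratio of Dnmt3a was 3.53 without the cells over 10% mitochondrial reads, and 5.89 as the mean of the authors' own scaled values. With RFP6 left out that mean gave 3.65.

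Dnmt3b was found in every RFP cell. It ranged from 0.33 to 1431 CPM in RFP cells with a median of 391 CPM, and from 0 to 417 CPM in GFP cells with a median of 43.4 CPM. At least 10 CPM was reached in 48 of 55 RFP cells and 28 of 40 GFP cells, and 25 RFP cells lay above every GFP cell. The highest GFP cell, GFP36, was also the GFP cell with the highest primitive endoderm markers (mean log2 of 6.15, against a median of 1.44 over GFP cells). The pooled levels were 432.1 CPM in RFP cells and 88.8 CPM in GFP cells, a log2 ratio of 2.27. Dnmt3a and Dnmt3b were both at 10 CPM or more in 39 of 55 RFP cells and 10 of 40 GFP cells, and Dnmt3b without Dnmt3a was seen in 9 RFP cells and 18 GFP cells.

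Dnmt3l ranged from 0 to 1510 CPM in RFP cells with a median of 58.0 CPM, and from 0 to 398.9 CPM in GFP cells with a median of 56.9 CPM. The quartiles were 0.66 and 278.8 CPM in RFP cells, and 18.1 and 149.9 CPM in GFP cells. The RFP cells were thus spread more widely at both ends around the same middle. The pooled log2 ratio was 0.68, with 161.8 CPM in RFP cells and 100.7 CPM in GFP cells. The mean log2(CPM + 1) over cells differed by -0.29, so the direction depends on how cells are averaged. All pairs of an RFP and a GFP cell were also compared, with tied pairs split evenly between the groups. A Dnmt3l read was present in 44 RFP cells and 33 GFP cells, so pairs of cells without one were tied. So counted, the RFP cell was higher for Dnmt3l in 51.4% of pairs, against 80.3% for Dnmt3a and 82.6% for Dnmt3b. Dnmt3l shares its locus with the protein-coding gene Aire, and strand use in the counting was not given in the sources used here.

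Tet1 and Tet2 differed in opposite directions. Tet1 ranged from 0 to 1439 CPM in RFP cells with a median of 424 CPM, and from 0 to 362 CPM in GFP cells with a median of 49.3 CPM. All but 1 of the 55 RFP cells had a read, and 31 RFP cells lay above every GFP cell. The pooled levels were 473.8 CPM in RFP cells and 54.2 CPM in GFP cells, a log2 ratio of 3.10. Tet2 ranged from 0 to 188 CPM in RFP cells with a median of 0 CPM, and from 0 to 648 CPM in GFP cells with a median of 120 CPM. A read of Tet2 was present in 26 of 55 RFP cells and 38 of 40 GFP cells, and 10 CPM or more in 8 RFP cells and 36 GFP cells. Its pooled levels were 9.68 CPM in RFP cells and 163.3 CPM in GFP cells, a log2 ratio of -3.94. The RFP cell with most Tet2 was RFP44, which held 25.5% of the Tet2 reads of the RFP cells. RFP44 was also the RFP cell with the highest trophectoderm markers (mean log2 of 2.65, against a median of 0.76), and 16.3% of its reads were mitochondrially encoded.

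Tet3, the oxidase known from the mouse zygote, was found in few cells of either group. It had a read in 5 of 55 RFP cells and 7 of 40 GFP cells. RFP39 alone, at 185 CPM, held 83.3% of the Tet3 reads of the RFP cells. The highest GFP cell was GFP34 at 77.4 CPM. Pooled levels were 2.92 CPM in RFP cells and 5.13 CPM in GFP cells, with a log2 ratio of -0.64 that rests on these few cells.

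**Figure D2:**
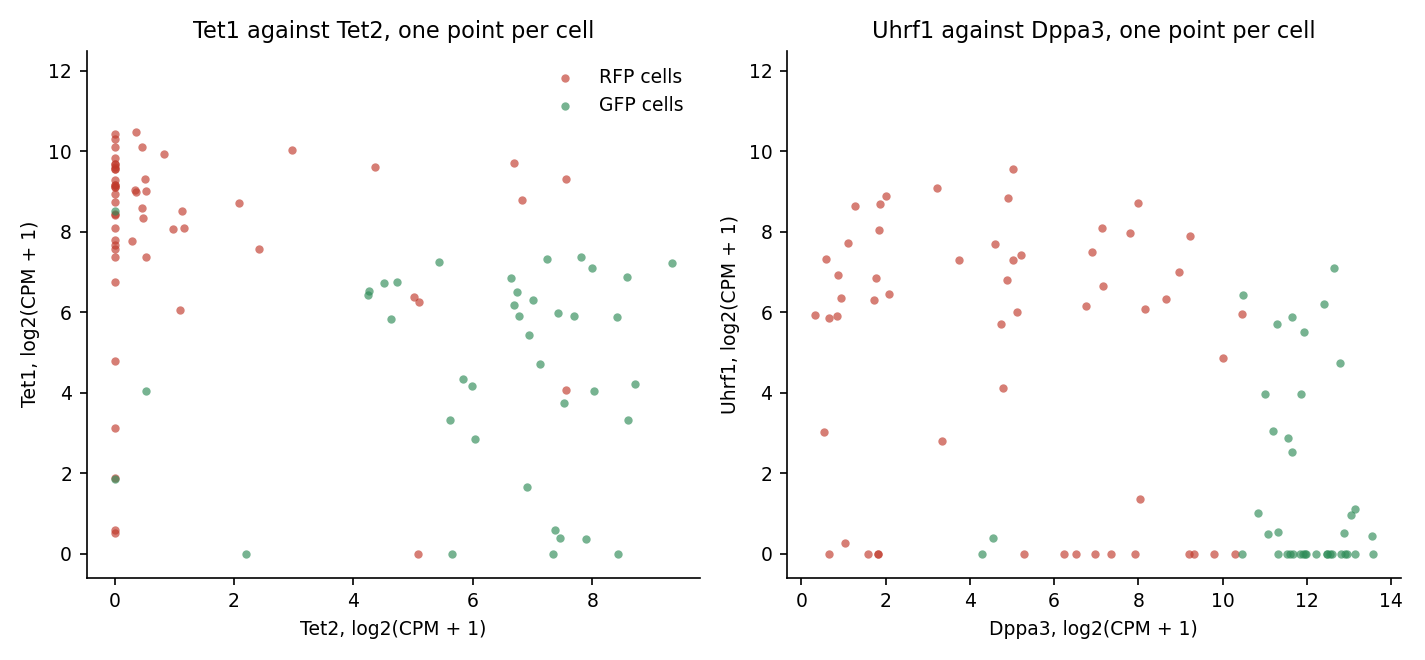
Left, Tet1 against Tet2, and right, Uhrf1 against Dppa3, both as log2(CPM + 1) with 1 point per RFP or GFP cell. Tet1 without Tet2 at 10 CPM is seen in 43 of 55 RFP cells and 2 of 40 GFP cells, and all but 3 GFP cells stand to the right of every RFP cell on the Dppa3 axis.

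Dppa3 showed the lowest ratio of the 10 genes. It ranged from 0.25 to 1405 CPM in RFP cells with a median of 28.9 CPM, and from 18.4 to 12122 CPM in GFP cells with a median of 3870 CPM. Every cell of both groups had a read, and 10 CPM was reached in 33 of 55 RFP cells and 40 of 40 GFP cells. The pooled levels were 164.9 CPM in RFP cells and 4750 CPM in GFP cells, a log2 ratio of -4.84. The 2 highest RFP cells were RFP19 at 1405 CPM and RFP44 at 1247 CPM. Among GFP cells, GFP27 at 18.4 CPM and GFP25 at 22.5 CPM stood apart from the rest, of which the lowest was GFP3 at 1398 CPM. GFP27 was also the GFP cell with most Tet1, 362 CPM, and most Zfp57, 37.8 CPM, and it had no Tet2 read. It had the lowest trophectoderm markers of the GFP cells (mean log2 of 1.08) and 14.9% mitochondrial reads. GFP25 had trophectoderm markers at a mean log2 of 4.16 and Tet2 at 223 CPM, and that Tet2 level lay within the range of the other GFP cells.

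Zfp57 was the imprint guardian with the opposite pattern to Dppa3. It ranged from 0 to 328 CPM in RFP cells with a median of 34.9 CPM, and from 0 to 37.8 CPM in GFP cells with a median of 0 CPM. It reached 10 CPM in 38 of 55 RFP cells and 6 of 40 GFP cells, and 26 RFP cells lay above every GFP cell. Pooled levels were 63.8 CPM in RFP cells and 3.93 CPM in GFP cells, a 16.2-fold ratio of CPM and a log2 ratio of 3.72 on CPM + 1. The authors' deposited table gives log2 fold changes of the same sign as these ratios for all 10 genes, such as 3.02 for Zfp57 and -4.17 for Dppa3, without stating which group was on top.

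Shares of cells with a read depend on depth, so each cell was also thinned to 500000 reads. Tet2 was then found in 29.1% of RFP cells and 92.5% of GFP cells, against 47.3% of RFP cells and 95% of GFP cells with all reads. Dppa3 was found in 81.8% of RFP cells and 100% of GFP cells after thinning. Dnmt1 was found in 65.5% of RFP cells and 42.5% of GFP cells, and Uhrf1 in 70.9% of RFP cells and 40% of GFP cells. The order of the groups was the same as with all reads for Tet2, Dnmt1 and Uhrf1.

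The balance of the classes was followed cell by cell. Sums over the genes of a class are not corrected for transcript length, so the level of a sum or the sign of a ratio says nothing about which class is more abundant, and both were compared only between cells. The maintenance sum (Dnmt1 and Uhrf1) had a median of 141.5 CPM in RFP cells and 5.86 CPM in GFP cells. The de novo sum (Dnmt3a, Dnmt3b and Dnmt3l) had a median of 907 CPM in RFP cells and 181 CPM in GFP cells. The Tet sum had a median of 454 CPM in RFP cells and 184 CPM in GFP cells. All 3 classes were therefore higher in the median RFP cell, by unequal amounts.

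Ratios within a cell show where the amounts were unequal. The log2 ratio of maintenance over Tet sums (CPM + 1) had a median of -1.55 in RFP cells and -4.52 in GFP cells. De novo over Tet had a median of 1.07 in RFP cells and -0.28 in GFP cells. Maintenance over de novo differed least, with medians of -2.48 in RFP cells and -2.94 in GFP cells, and the RFP cell was higher in 54.1% of cell pairs. Maintenance over Dppa3 differed most among the ratios of classes, with medians of 1.74 in RFP cells and -7.92 in GFP cells. The RFP cell was higher in 92.2% of cell pairs. Tet1 over Tet2 had medians of 7.85 in RFP cells and -1.60 in GFP cells, and the RFP cell was higher in 93.5% of cell pairs. The 2 RFP cells with the lowest ratio were RFP34 and RFP44. The ratio of Dnmt3a and Dnmt3b together over Dnmt3l had medians of 3.0 in RFP cells and 0.14 in GFP cells. Without the cells over 10% mitochondrial reads the medians of maintenance over Dppa3 were 2.25 in RFP cells and -8.06 in GFP cells, and those of Tet1 over Tet2 were 8.09 in RFP cells and -1.70 in GFP cells.

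**Figure D3:**
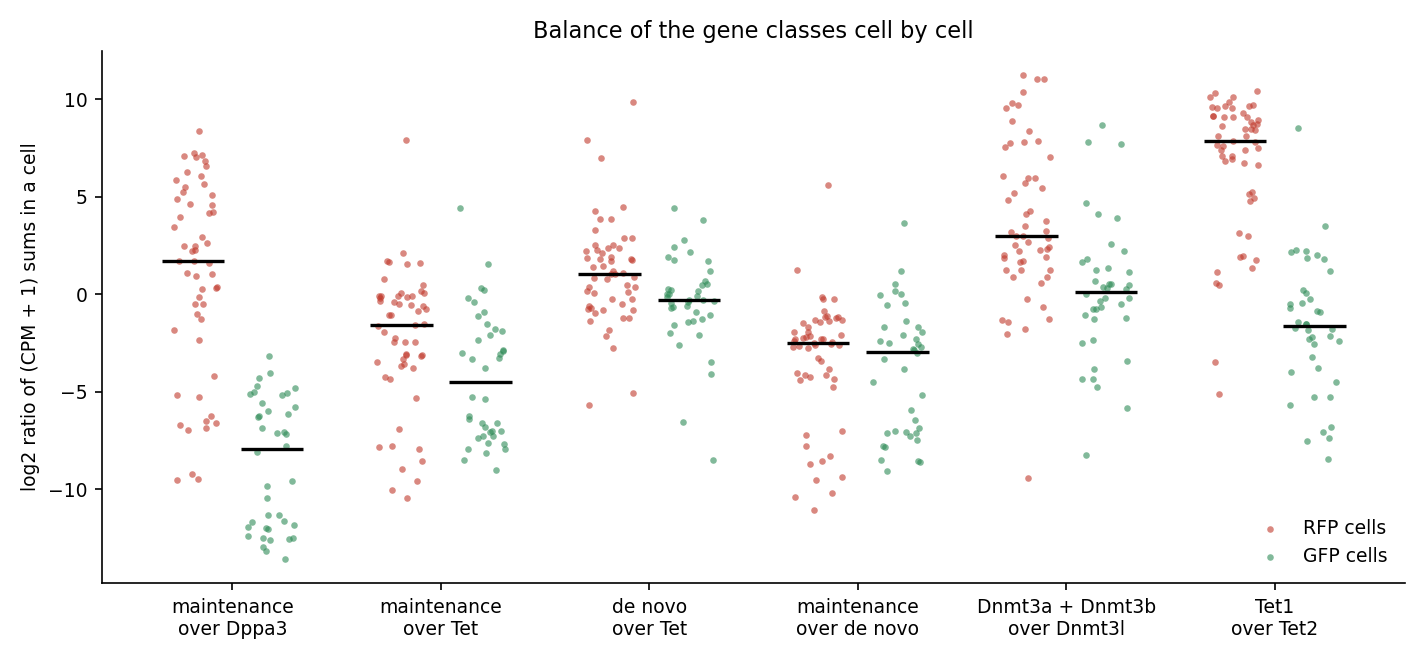
Log2 ratio of summed CPM + 1 between gene classes or genes in each RFP and GFP cell, 1 point per cell, with group medians as bars. Maintenance over Dppa3 has medians of 1.74 in RFP cells and -7.92 in GFP cells, while maintenance over de novo has medians of -2.48 in RFP cells and -2.94 in GFP cells.

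Cells of one group also differed in which genes they held. Of the 10 genes, a median of 7 reached 10 CPM in an RFP cell (0 to 9) and 6 in a GFP cell (1 to 8). All 3 de novo genes reached it in 28 of 55 RFP cells and 8 of 40 GFP cells. Exactly 1 Tet gene reached it in 41 RFP cells and 11 GFP cells, and 2 of them in 10 RFP cells and 24 GFP cells. Tet1 and Tet2 met in 7 RFP cells and 26 GFP cells, and Tet2 alone of this pair was seen in 1 RFP cell and 10 GFP cells. RFP41, with 10.8% mitochondrial reads, had none of the 10 genes at 10 CPM. Within the RFP cells, Uhrf1 reached 10 CPM in 22 of the 33 cells with Dppa3 at 10 CPM or more and in 15 of the 22 cells without.

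Across the 55 RFP cells, Dnmt1 and Uhrf1 varied together with a Spearman rho of 0.51, and Dnmt3a and Dnmt3b with 0.54. Across the 40 GFP cells, Dnmt1 and Uhrf1 had a rho of 0.36, and Dnmt3a and Dnmt3b 0.19. These are descriptions over cells that may share embryos. Uhrf1 had a rho of 0.49 with the mean log2 of the S phase genes in RFP cells and 0.60 in GFP cells. In RFP cells Zfp57 had 0.53, Dnmt1 0.52, Dnmt3a 0.46 and Dnmt3b 0.44 with that mean. The others had 0.24 for Dnmt3l, 0.07 for Tet3, -0.04 for Tet2, -0.08 for Tet1 and -0.24 for Dppa3. In GFP cells Uhrf1 was followed by Dnmt3b at 0.51 and Dnmt1 at 0.47. Uhrf1 also had a rho of 0.43 in RFP cells and 0.52 in GFP cells with the number of genes detected. In RFP cells Dnmt3a and Dnmt3b had a rho of 0.51 and 0.54 with the number of genes detected, and the S phase mean itself had 0.77 with it. The part of detection or cell cycle in these pairs was not tested.

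The genes most like each member were ranked by rho among 1843 genes found in at least 80% of RFP cells, and 2597 in GFP cells. In RFP cells Tsc22d1 was nearest to Dnmt3l at 0.64, Tuba1b to Dnmt3a at 0.59, Wdr33 to Dnmt1 at 0.59 and Mat2a to Dnmt3b at 0.55. MAT2A makes the methyl donor S-adenosylmethionine, but Ccna2 and Usp1 stood level with Mat2a for Dnmt3b, also at 0.55. Dnmt3b had a rho of 0.54 with the number of genes detected, and the part of detection in these ranks was not tested. Tet1 had weaker neighbours in RFP cells, led by Rpsa at 0.45, and Dppa3 by Calcoco2 at 0.42. In GFP cells Map1lc3b was nearest to Dppa3 at 0.67, Smarcc1 to Tet2 at 0.66, Pum3 to Tet1 at 0.59, Cecr2 to Dnmt3b at 0.58 and Sptlc2 to Dnmt3l at 0.53.

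Other genes of the pathway were read from lists by role, and their counts stand beside the 25% of all genes that were at least 1 higher and the 21.9% that were at least 1 lower. As the difference of mean log2(CPM + 1) over cells, the lists' medians were smaller than the pooled ones. They were then 0.89 for maintenance partners, 0.07 for de novo partners and antagonists, 0.32 for TET partners and repair, 0.27 for imprint protection, -0.094 for readers, 0.37 for methyl and 2-oxoglutarate supply, 0.75 for S phase and -0.32 for mitosis, against -0.063 for all genes. The sign of the medians of the readers and the mitosis genes thus depends on how cells are averaged. Among 9 maintenance partners, 5 were at least 1 higher on the log2 scale in RFP cells and 0 at least 1 lower, with a median of 1.23. Cdca7 was at 200.5 CPM in RFP cells and 9.69 CPM in GFP cells, and Hells, the chromatin remodeller that works with CDCA7, at 632.5 CPM in RFP cells and 104.9 CPM in GFP cells. The other higher partners were Hdac1, Pcna and Cdca7l, the last at under 10 CPM in both groups. Among 12 partners and antagonists of de novo methylation, 5 were higher and 3 lower, with a median of 0.79. Morc1, which silences transposons in the mouse germ line, was at 225.7 CPM in RFP cells and 2.78 CPM in GFP cells. Nsd1, which writes H3K36 methylation, was at 525.8 CPM in RFP cells and 90.4 CPM in GFP cells. Smchd1, a repressor on the inactive X chromosome, was at 94.8 CPM in RFP cells and 22.8 CPM in GFP cells. The other higher ones were the histone demethylases Kdm5b and Kdm2b, and the lower ones were Kdm1b, Nsd2 and Setd2. Setd2, also an H3K36 methyltransferase, was at 120.1 CPM in RFP cells and 289.5 CPM in GFP cells.

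Among 17 measured partners of the TET enzymes and base excision repair genes, 10 were higher and 3 lower, with a median of 1.41, and 6 were under 10 CPM in both groups. Hmces, which shields abasic sites, was at 200.8 CPM in RFP cells and 1.05 CPM in GFP cells. The lower ones were Smug1, Lig3 and Tdg. Tdg, the glycosylase that removes oxidised methylcytosine, was at 22.3 CPM in RFP cells and 48.3 CPM in GFP cells. Of 12 genes for imprint protection and H3K9 methylation, 2 were higher and 0 lower, a smaller share of higher genes than the 25% of all genes. These were Trim28, the corepressor that ZFP57 recruits, at 381.6 CPM in RFP cells and 147.4 CPM in GFP cells, and Daxx at 81.2 CPM in RFP cells and 14.2 CPM in GFP cells. Of 9 measured methyl-CpG readers, 1 was higher and 1 lower, smaller shares than over all genes, with a median of 0.52. The higher one, Zbtb38, was at 79.6 CPM in RFP cells and 23.4 CPM in GFP cells, and the lower one, Mbd5, was under 10 CPM in both groups.

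Of 19 measured genes that supply methyl groups or 2-oxoglutarate, which TET enzymes need, 9 were higher and 2 lower, with a median of 0.91. Tdh, the threonine dehydrogenase on which mouse ESCs depend, was at 272.1 CPM in RFP cells and 5.81 CPM in GFP cells, and Shmt2, a mitochondrial enzyme of one-carbon metabolism, at 77.9 CPM in RFP cells and 6.25 CPM in GFP cells. Idh3a, a subunit of a mitochondrial isocitrate dehydrogenase, was among the lower ones, at 321.5 CPM in RFP cells and 692.5 CPM in GFP cells. Of 20 S phase genes 12 were higher and 1 lower, with a median of 1.10. Of 14 mitosis genes 3 were higher and 0 lower, with a median of 0.18, which is no larger a share of higher genes than the 25% of all genes. The lower S phase gene was Rrm1, and the higher mitosis genes were Bub1, Aurkb and Plk1. The part of the cell cycle in the maintenance genes' difference was not tested. Beyond the 3 of each list with the largest ratios, the genes named here were chosen after their values were seen.

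Around the starts of these genes, methylation was higher in MEF than in both ESC libraries at all but 1 region. Over the 28528 regions of all genes, 9 were at least 20 points higher in Actin-RFP ESC than in MEF, and 281 in Gjb2-35delG ESC. Methylation was below 20% in 9 of the 13 regions in Actin-RFP ESC, 7 in Gjb2-35delG ESC and 2 in MEF. Over all genes that share was 41.7% in Actin-RFP ESC, 21.6% in Gjb2-35delG ESC and 8.70% in MEF. Methylated calls were summed over 200 bp windows within 2000 bp of each start, and starts of one gene at most 2000 bp apart were joined, which gave 13 regions for 9 genes. Over these regions the median was 9.65% in Actin-RFP ESC, 14.6% in Gjb2-35delG ESC and 37.0% in MEF. Over the regions of all genes it was 25.3% in Actin-RFP ESC, 51.1% in Gjb2-35delG ESC and 63.2% in MEF. Over all calls of a library 38.6% were methylated in Actin-RFP ESC, 66.2% in Gjb2-35delG ESC and 78.2% in MEF, so every difference from MEF stands beside a genome-wide one.

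In Actin-RFP ESC, 5 of the 13 regions were at least 30 percentage points below MEF, against 52.8% of 28528 regions of all genes. In Gjb2-35delG ESC, 3 of the 13 were, against 5.78%. These 3 were the second and the third Dnmt3l region and Zfp57, and the further 2 in Actin-RFP ESC were both Dnmt1 regions. Of these, 2 lay close to the limit. The first Dnmt1 region was at -30.1 points in Actin-RFP ESC, and at -29.3 as the mean of the windows' deposited fractions, where Uhrf1 passed at -31.0. The third Dnmt3l region was at -31.1 points in Gjb2-35delG ESC, and at -28.2 with at least 20 calls a window. The median difference from MEF was -23.0 points in Actin-RFP ESC and -13.9 points in Gjb2-35delG ESC, against -31.1 points in Actin-RFP ESC and -9.47 points in Gjb2-35delG ESC over all genes.

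**Figure D4:**
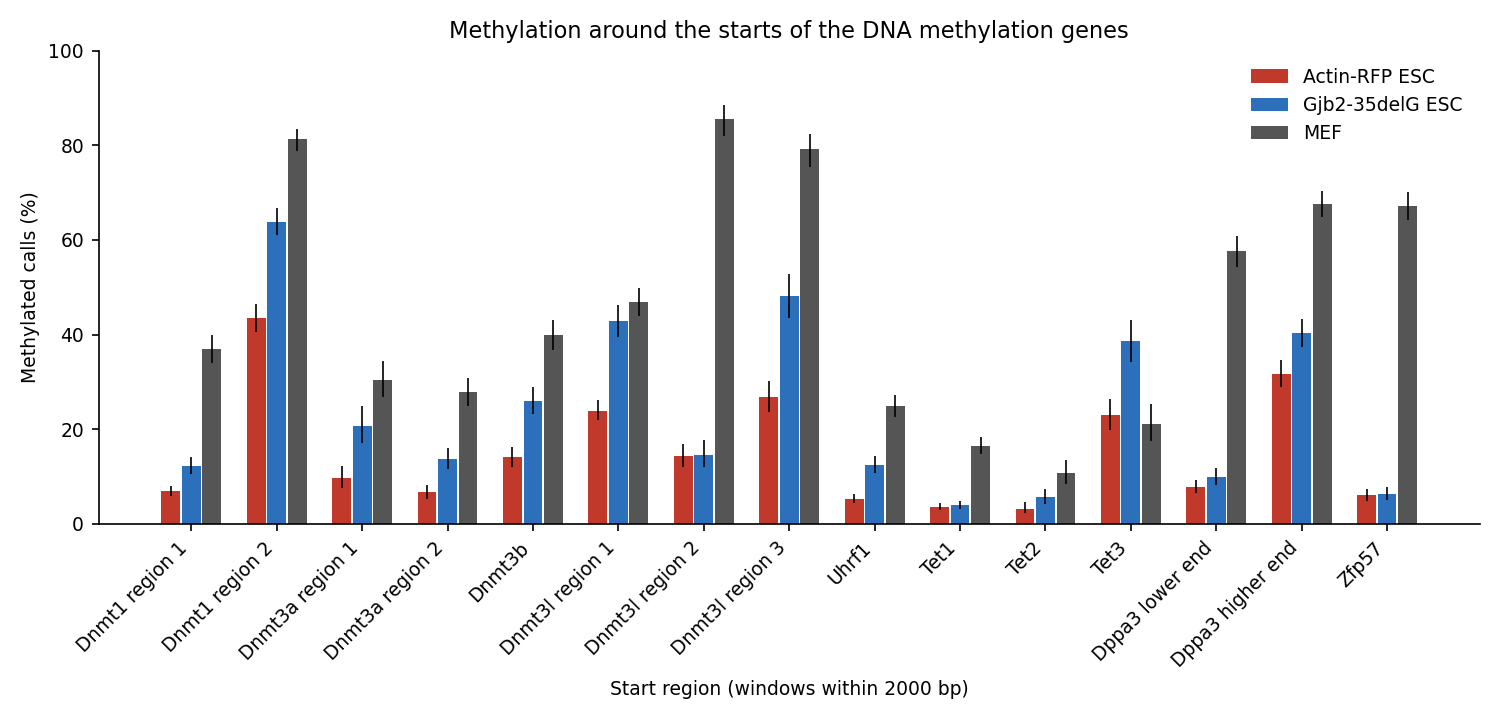
Percent of methylated calls in windows within 2000 bp of each start region, as bars for Actin-RFP ESC, Gjb2-35delG ESC and MEF, with Wilson 95% intervals that cover counting error only. The second Dnmt3l region and Zfp57 are at or below 14.6% in both ESC libraries and at 85.5% and 67.3% in MEF. Tet3 is the only region where MEF is not the highest of the 3 libraries, and its Actin-RFP ESC and MEF intervals overlap.

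Zfp57 (chromosome 17, 37001163 to 37010729, plus strand) had 6.05% methylated calls in Actin-RFP ESC (Wilson 95% interval 4.91 to 7.43%, 1389 calls), 6.28% in Gjb2-35delG ESC (1227 calls) and 67.3% in MEF (1029 calls). Its 3 annotated starts differed in MEF. Within 500 bp of the first start, whose promoter is printed above, 12.2% of calls were methylated in Actin-RFP ESC, 26.3% in Gjb2-35delG ESC and 94.1% in MEF. Within 500 bp of the second start, the shares were 2.35% in Actin-RFP ESC, 3.49% in Gjb2-35delG ESC and 5.73% in MEF. The third start had 3.97% in Actin-RFP ESC, 1.70% in Gjb2-35delG ESC and 58.2% in MEF. In MEF the windows centred 1537 to 2137 bp past the first start had 2.83 to 22.2% methylated calls, and the windows on either side of them had 38.5% or more.

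Dnmt3l (chromosome 10, 78042287 to 78063622, plus strand) has 3 start regions that did not behave alike. Within 500 bp of the first start 38.6% of calls were methylated in Actin-RFP ESC, 60.3% in Gjb2-35delG ESC and 54.7% in MEF. At the second start the shares were 9.52% of 231 calls in Actin-RFP ESC, 3.15% of 159 calls in Gjb2-35delG ESC and 76.9% of 78 calls in MEF. At the third start they were 8.09% in Actin-RFP ESC, 9.09% in Gjb2-35delG ESC and 66.1% in MEF. The first start was thus partly methylated in all 3 libraries, while the second and the third had few methylated calls in both ESC libraries and many in MEF. Dnmt3l is known to be transcribed from different starts in different mouse cell types, and the expression table does not resolve them.

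**Figure D5:**
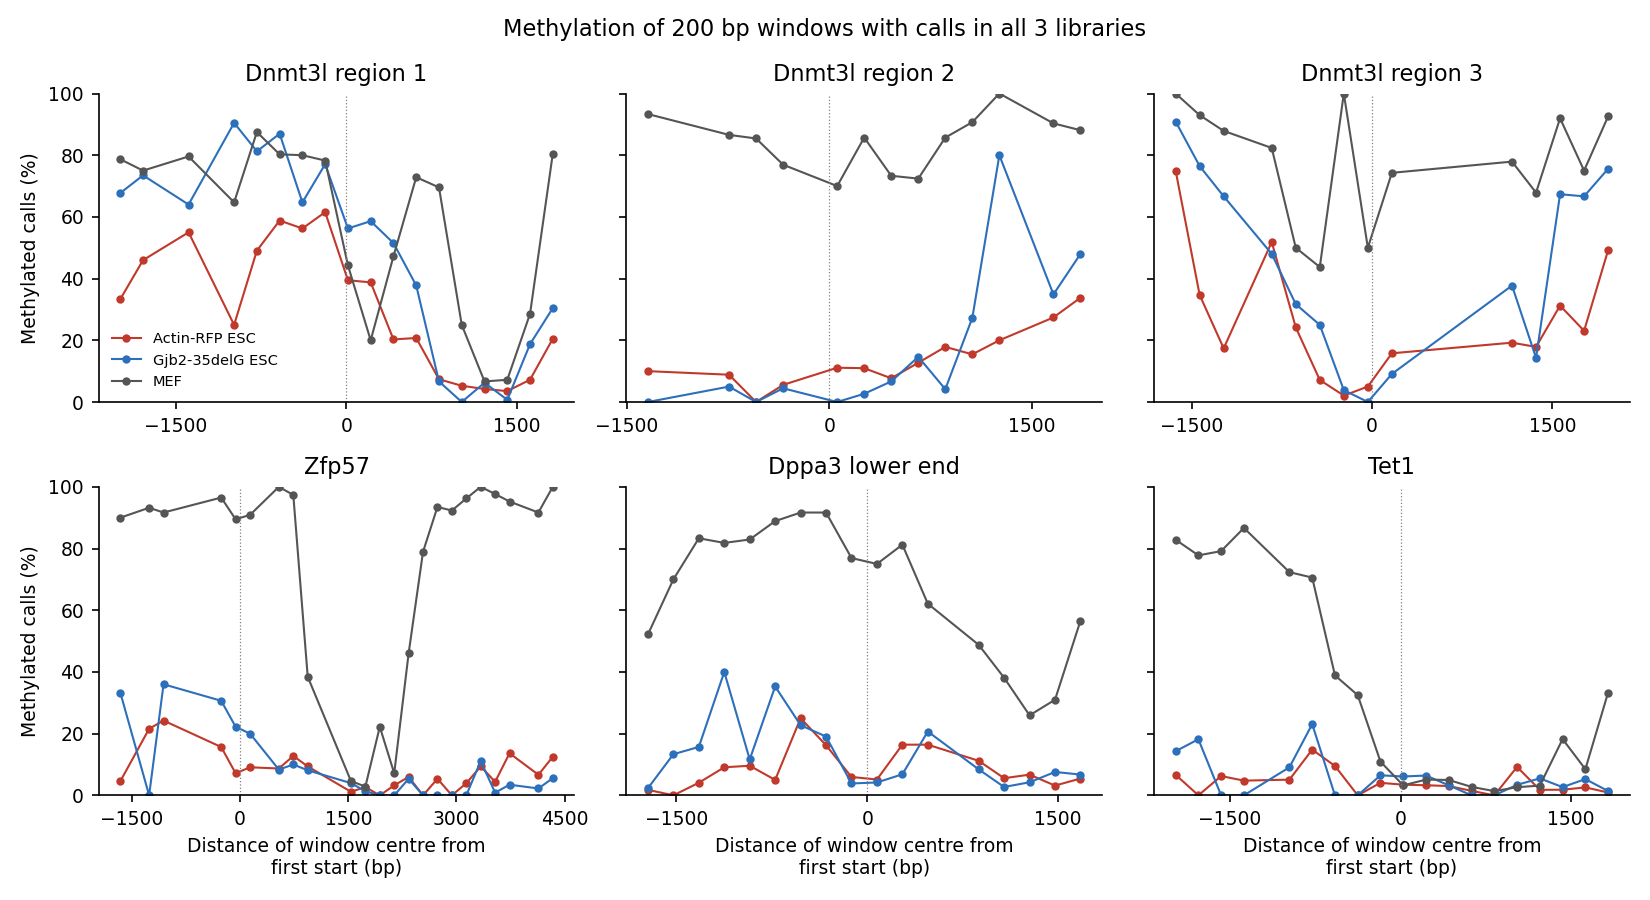
Percent of methylated calls in each 200 bp window, by distance of the window's centre from the first start (the lower gene end for Dppa3), for Actin-RFP ESC, Gjb2-35delG ESC and MEF. In Zfp57 the MEF line drops to 4.63% at 1537 bp and returns above 90%, and in Tet1 it is at 3.23% at 24 bp and at 70.6% or more in the windows 776 bp and farther upstream.

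Dppa3 (chromosome 6, 122626424 to 122630271) was read at both gene ends and is not among the 13 regions. Around the lower-coordinate end 7.82% of calls were methylated in Actin-RFP ESC, 9.83% in Gjb2-35delG ESC and 57.7% in MEF. Around the higher-coordinate end the shares were 31.7% in Actin-RFP ESC, 40.4% in Gjb2-35delG ESC and 67.7% in MEF.

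Tet1 and Tet2 had the lowest values. Tet1, whose start lies at 62887324 on chromosome 10, had 3.52% in Actin-RFP ESC, 3.93% in Gjb2-35delG ESC and 16.5% in MEF. Within 500 bp of its start MEF was at 9.40%, so most of its methylated calls lay farther out. Tet2, whose promoter is the most CpG-rich of the set with 57 CpGs (as many are found in 0.152% of promoters), had 3.22% in Actin-RFP ESC, 5.58% in Gjb2-35delG ESC and 10.7% in MEF. Tet3 was the exception to the order of the libraries, with 22.9% in Actin-RFP ESC (19.8 to 26.3%), 38.6% in Gjb2-35delG ESC (34.2 to 43.1%) and 21.2% in MEF (17.5 to 25.3%). Actin-RFP ESC minus MEF was 1.77 points there, but -2.39 as the mean of the windows' deposited fractions and -2.13 with at least 20 calls a window. The order of these 2 libraries at Tet3 thus depends on the setting. Gjb2-35delG ESC lay 17.4 points above MEF within 2000 bp, and 3.94% of all regions were at least 10 points above. Within 500 bp of the Tet3 start the shares were 8.46% in Actin-RFP ESC, 10.9% in Gjb2-35delG ESC and 5.29% in MEF, so that difference also lay in the flanks.

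Close to a start of each maintenance gene, few calls were methylated in any of the 3 libraries. Uhrf1 had 5.22% in Actin-RFP ESC, 12.4% in Gjb2-35delG ESC and 24.8% in MEF within 2000 bp, and 2.69% in Actin-RFP ESC, 3.74% in Gjb2-35delG ESC and 4.36% in MEF within 500 bp of its first start. The first Dnmt1 region, with starts at 20952623 and 20952979 on chromosome 9, had 6.90% in Actin-RFP ESC, 12.2% in Gjb2-35delG ESC and 37.0% in MEF. Its start at 20952623 had 3.84% in Actin-RFP ESC, 2.89% in Gjb2-35delG ESC and 3.73% in MEF within 500 bp. The upstream Dnmt1 start at 20959888, with 2 CpGs in its promoter, was the most methylated of all regions in both ESC libraries, with 43.5% in Actin-RFP ESC, 63.9% in Gjb2-35delG ESC and 81.3% in MEF. The promoters were also searched on both strands for TTTCCCGC and TTTGGCGC, E2F-type motifs. Of the 18 promoters of these genes 1 held either, the Dnmt1 start at 20952623 with TTTGGCGC, against 1.57% of all promoters.

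The de novo enzymes had intermediate values within 2000 bp of their starts. Dnmt3b had 14% in Actin-RFP ESC, 26% in Gjb2-35delG ESC and 39.9% in MEF. Dnmt3a had 9.65% in Actin-RFP ESC, 20.7% in Gjb2-35delG ESC and 30.5% in MEF at its first region. Within 500 bp of the starts, 0 windows had 5 calls in all 3 libraries at the first Dnmt3a region, and 1 window did at Dnmt3b. The values of these regions thus describe mainly their flanks, unlike those of starts with covered windows. At the downstream Dnmt3a start at 3891744 on chromosome 12 the shares were 6.67% in Actin-RFP ESC, 13.7% in Gjb2-35delG ESC and 27.8% in MEF. Between the ESC lines, Actin-RFP ESC was lower than Gjb2-35delG ESC at all 13 regions, with a median difference of -7.22 points, against -20.9 points over all genes. It was at least 20 points lower at 2 of the 13 regions and at 52.2% of the 28528 regions of all genes. Of those 28528 regions, 1 was at least 20 points higher in Actin-RFP ESC, so this direction is general and no trait of these genes. The lines differ in genotype, passage and derivation, which cannot be told apart with 1 library each.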

How the data were processed

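Per the labels' protocols, each cell was picked by micromanipulator into its own tube and its full-length cDNA amplified with a kit without molecular identifiers. The build mm10 and the tools DESeq2 1.30.0, featureCounts 2.0.0, STAR 2.7.3a and fastp 0.20.0 appear in the submitters' processing notes. The expression table is a deposited signal, in which the authors divided each gene's read count by one factor per cell. Dividing by each cell's smallest positive value gave whole reads for 100% of values within 0.01. The authors' deposited log2 fold change was printed but not used in any calculation. Each window in the authors' bisulfite data has a deposited methylation fraction, a number of methylated calls and a number of calls without methylation. The filter on genes was not given in the sources used here.

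Reads were scaled to CPM per cell and, pooled, per group, and the log2 ratio used a pseudocount of 1, which understates the change of low genes. Intervals are exact Poisson, exact binomial or Wilson, at 95%, and cover counting error only. The Poisson intervals and the thinning treat each recovered read as independent. PCR copies are not independent, nor are reads of 1 fragment if these were counted apart. The Poisson intervals can therefore be too narrow even for counting error. No test and no count model was run, because each group is 1 sample. In all shares of cell pairs, ties were split evenly between the groups. Windows of 200 bp needed 5 calls in all 3 libraries, and a region within 2000 bp needed 3 windows. For shares within 500 bp of a start, 1 window was enough. The computation, with Python 3.11.15, numpy 2.4.6, scipy 1.17.1 and pandas 2.3.3, was tested on simulated data. Gene positions and promoters are RefSeq on GRCm38.p6. The design planned class sums per kb of transcript, but no lengths were used here, so sums of CPM were compared between cells only. All 10 genes are described, and of each further list the rule named at most 3 genes with the largest absolute ratio at 10 CPM or more. Further genes of these lists were named after their values were seen. The members and lists were chosen with earlier results of these data known, so the lists are no independent support. The 17 cells labelled RFPpos or GFPpos, the 9 labelled RFPpos-GFPpos, the E7.5 sample and the amplicons were not analysed here. Alternatives covered pseudocounts of 0.1 and 10, averaging over cells, the authors' scaling, leaving out cells, thinning, and other windows, minimum calls and limits.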

Additional observations from a re-analysis of the deposited data

How the results depend on the processing

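Of 40 values and settings for the summary results, 38 were the same in direction and within the spread allowed. The median log2 ratio of the 10 genes was 3.12 as the difference of median log2(CPM + 1) over cells, against 2.04 pooled. At a limit of 20 points in place of 30, 9 of the 13 start regions were lower in Actin-RFP ESC than in MEF, against 5, while 74.5% of the regions of all genes passed that limit. Among the single values, the ratio of Dnmt3l turned to -0.29 as the difference of mean log2(CPM + 1) over cells, and the median of all genes to -0.063. The cause was not tested. The mean of the authors' scaled values put Dnmt3a at 5.89, and at 3.65 with RFP6, the cell with the fewest reads, left out, a setting chosen after seeing the data. No paired analysis was possible because the numbers in the labels only number the cells and no test was run. Class sums per kb of transcript were not run, since no transcript lengths were used. With 1 library or 1 group of cells of each kind, depth sets the counting error but not the spread between embryos or cultures, which stays unknown.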
